A study of Mus musculus with 14 samples.

Results

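The matrix metalloproteinases (MMPs), the ADAMTS proteases and the tissue inhibitors of metalloproteinases (TIMPs) were followed through the aortic valve leaflets of 14 mice by bulk RNA sequencing, with 1 library per mouse. The members were every protein-coding gene whose GENCODE symbol is Mmp, Adamts or Timp followed by its number, which gave 46 genes (23 MMP, 19 ADAMTS and 4 TIMP genes) of the 56941 in the count table. All mice were male wild type C57BL/6J mice. The methods name Breslow Western Diet, a hypercholesterolemic diet, for the infused mice and give no separate diet for the Ctrl and LY mice. The age given is 8 weeks, which the methods state for the mice that were put on the diet and infused for 28 days. The 4 Ctrl mice were untreated. The 2 LY mice received 3 mg/kg of LY272015, which blocks HTR2B, a receptor for serotonin; the design text gives 4 mice in every group, and further LY mice were not analysed here. The 4 AngII mice were infused with angiotensin II at 1000 ng/kg/min from subcutaneous osmotic pumps for 28 days, and the 4 AngII+LY mice received both. The design text places the AngII and AngII+LY valves 48 hours after the pumps were taken out, whereas the methods describe this for a subset of mice. The treatment labels of LY 2 and of AngII+LY 2, 3 and 4 carry other compound numbers (LY272016 to LY272018), and the mice were grouped here by their titles. The sources also differ on how often LY272015 was given.

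MMPs are zinc-dependent endopeptidases that are made as inactive proenzymes, secreted or held at the cell membrane, and that cleave collagens, elastin, laminin and other matrix proteins. ADAMTS proteases are secreted relatives with thrombospondin repeats: some cut the proteoglycans versican and aggrecan, others trim the amino-terminal propeptide from procollagens. TIMPs bind the active site of MMPs, and TIMP3, which stays attached to the matrix, also inhibits several ADAMTS proteases. In heart valves the balance of these enzymes and inhibitors shapes the layers of collagen, proteoglycan and elastin in the leaflet.

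Transcription of several MMP genes is known to depend on AP-1 sites close to the start site, so the 250 bases upstream of the start site (that of the Ensembl canonical transcript, GENCODE vM39, GRCm39) were searched on both strands for an AP-1 motif (TGANTCA, the same letters on both strands), a GC box (GGGCGG) and a TATA motif (TATAAA). The AP-1 letters were found in 12 of the 46 members (26.1%), against 6.17% of 21770 protein-coding promoters. Among the genes with enough counts to be tested they were in 7 of 35 members (20%), against 4.89%. Many of them lie together: 10 MMP genes stand side by side on chromosome 9 between 7272514 and 7699587, a span of 427 kb, and 8 of these 10 held the AP-1 motif, 8 the TATA motif and 0 the GC box. The GC box was in 16 members (34.8%, against 36.3% of all promoters) and the TATA motif in 12 (26.1%, against 11.9%). Promoters are printed for a few genes described below. Mmp3, Mmp13 and Mmp9, a stromelysin, a collagenase and a gelatinase, are among the 12 members that hold the AP-1 motif. Mmp2 holds a GC box. Timp1 and Timp2 hold none of the 3 motifs in this window. Their ratio, chosen after its values were seen, separated the mice given AngII from the others. Each promoter is written 5′ to 3′ in the direction of the gene, with the 3 motifs in capitals. In these windows no match overlapped a match of another motif.
Mmp3: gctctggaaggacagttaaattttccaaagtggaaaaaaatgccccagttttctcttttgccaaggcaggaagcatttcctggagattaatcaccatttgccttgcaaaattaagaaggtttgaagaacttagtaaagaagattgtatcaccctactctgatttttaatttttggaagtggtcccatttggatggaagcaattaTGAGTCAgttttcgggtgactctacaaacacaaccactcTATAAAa
Mmp13: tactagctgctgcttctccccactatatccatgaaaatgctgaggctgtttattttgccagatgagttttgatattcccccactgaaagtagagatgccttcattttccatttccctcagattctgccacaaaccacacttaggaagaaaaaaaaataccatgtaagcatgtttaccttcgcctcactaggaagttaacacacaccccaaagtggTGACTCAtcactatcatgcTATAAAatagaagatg
Mmp9: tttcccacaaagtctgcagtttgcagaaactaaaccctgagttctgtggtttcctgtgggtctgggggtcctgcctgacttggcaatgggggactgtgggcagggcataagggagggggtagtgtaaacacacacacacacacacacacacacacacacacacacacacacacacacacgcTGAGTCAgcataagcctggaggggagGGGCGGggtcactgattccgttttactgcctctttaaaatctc
Mmp2: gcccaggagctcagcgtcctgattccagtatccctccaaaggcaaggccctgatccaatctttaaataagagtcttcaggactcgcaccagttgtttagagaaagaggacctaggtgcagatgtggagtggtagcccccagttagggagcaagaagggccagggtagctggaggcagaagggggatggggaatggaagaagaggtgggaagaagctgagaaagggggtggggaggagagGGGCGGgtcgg
Timp1: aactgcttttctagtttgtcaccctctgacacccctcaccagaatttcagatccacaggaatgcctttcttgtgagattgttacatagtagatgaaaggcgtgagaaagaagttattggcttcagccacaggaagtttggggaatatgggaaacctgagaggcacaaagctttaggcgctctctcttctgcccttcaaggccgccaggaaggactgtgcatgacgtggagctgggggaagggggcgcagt
Timp2: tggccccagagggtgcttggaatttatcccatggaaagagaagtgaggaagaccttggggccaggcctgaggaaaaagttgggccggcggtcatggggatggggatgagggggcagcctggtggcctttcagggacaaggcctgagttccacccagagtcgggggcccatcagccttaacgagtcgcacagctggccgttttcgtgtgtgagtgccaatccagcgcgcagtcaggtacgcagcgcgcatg
The Mmp3 window is chr9:7445572-7445821 on the plus strand, with the AP-1 letters beginning 46 and the TATA letters 7 bases before the start site. The Mmp13 window is chr9:7272264-7272513 on the plus strand, with AP-1 beginning at 35 and TATA at 16 bases before it. The Mmp9 window is chr2:164789889-164790138 on the plus strand, with AP-1 at 69 and the GC box at 43 bases, and the Mmp2 window is chr8:93553652-93553901 on the plus strand, with the GC box at 11 bases. The windows of Timp1 and Timp2 are chrX:20736101-20736350 on the plus strand and chr11:118246364-118246613 on the minus strand. A match of letters is a description of the sequence and shows no binding.

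The libraries held 20990655 to 73128220 counts on genes, the fewest in AngII 4. Each count was divided by its library's TMM-scaled size, expressed relative to the mean of the 14, to give a normalized count, and levels are compared between genes only per kilobase of exon. Mitochondrial genes took 4 to 7.52% of counts in the Ctrl mice and 8.62 to 9.76% in the LY mice. Their share was 9.83 to 25.5% in the AngII mice and 10.1 to 20.2% in the AngII+LY mice. AngII 3 (24.7%) and AngII 4 (25.5%) stood apart from AngII 1 (11%) and AngII 2 (9.83%). The fold changes of members that reached an unadjusted p under 0.05 in a comparison with AngII are therefore given with and without AngII 3 and AngII 4. Spearman's correlation of gene deviations with GC content was lowest in these libraries (-0.363 and -0.436). It was also negative in AngII 1 (-0.078), AngII 2 (-0.193) and AngII+LY 1 (-0.134), against 0.024 to 0.368 in Ctrl. AngII+LY 2, 3 and 4 had 0.203, 0.183 and 0.12. Leaving out AngII 3 and AngII 4 thus keeps AngII mice that lay below every Ctrl mouse in this measure. All 10 interstitial cell markers and all 8 endothelial markers were counted in every group, as the label of valve leaflets asks, but so were all 10 cardiomyocyte markers, all 8 macrophage markers and all 8 adipocyte markers. The summed interstitial markers lay between 812197 and 939160 normalized counts in AngII and between 300209 and 541329 in AngII+LY, and the summed cardiomyocyte markers between 387989 and 1057090 in AngII and between 1036368 and 2454793 in AngII+LY. In whole leaflets, fewer cells of a type and less RNA per cell cannot be told apart, and the part of these shifts in the results below was not tested.

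Of the 46 members, 35 averaged 10 counts or more per library and were tested, namely 15 MMP, 16 ADAMTS and all 4 TIMP genes. At 0 in every library were 5 members: the interstitial collagenases Mmp1a and Mmp1b, the stromelysin Mmp10, Adamts16 and Adamts18. For each of them 3 counts in the smallest library, 1.43e-05% of its counts, is the limit that a count of 0 allows, which covers counting error only. Counted below the minimum were another 6: Mmp8, the neutrophil collagenase, with 71 counts in all 14 libraries together, Mmp25 with 30, Mmp21 with 9, Adamts13, the protease of von Willebrand factor, with 3, and Mmp7 and the enamel protease Mmp20 with 2 each. Of the 10 genes in the chromosome 9 cluster, 4 were tested (Mmp3, Mmp12, Mmp13 and Mmp27) and 3 were at 0.

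Timp2 had the highest level of the family, with a median over the 14 mice of 10000 normalized counts per kilobase, followed by Timp3 at 5730, Adamts8 at 5200, Mmp2 at 2050, Timp1 at 1940, Mmp23 at 1580, Adamts1 at 1360, Mmp3 at 821, Mmp14 at 819, Adamts2 at 417, Adamts10 at 365 and Adamts5 at 263. Timp2 exceeded Timp3 in 12 of 14 mice, Timp3 exceeded Adamts8 in 9 and Mmp14 exceeded Adamts2 in 13, while Mmp2 and Timp1 (7 of 14), Timp1 and Mmp23 (7) and Mmp23 and Adamts1 (8) could not be ordered by these mice. With the longest transcript as the length in place of all exons, Timp3 stood at 9730 per kilobase, Mmp14 at 1460 and Adamts10 at 884. All members together took 0.156 to 0.429% of a library's counts, and per kilobase the TIMPs made up 43.6 to 63.0% of that, the MMPs 9.04 to 32.5% and the ADAMTS genes 12 to 44.4%. Per kilobase, the MMPs of a Ctrl mouse summed to 6140 to 12300 normalized counts and those of a LY mouse to 8620 to 10500. The sum was 3090 to 6930 in the AngII mice and 3130 to 4210 in the AngII+LY mice. The ADAMTS sum was 5370 to 8480 in Ctrl and 8230 to 13600 in AngII, and the AngII+LY mice spanned both at 3650 to 14600. Adamts8 alone made up 31.4 to 61.2% of it in Ctrl and 60.0 to 76.6% in AngII, and its share in the AngII+LY mice ran from 35 to 85.9%.

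**Figure D1:**
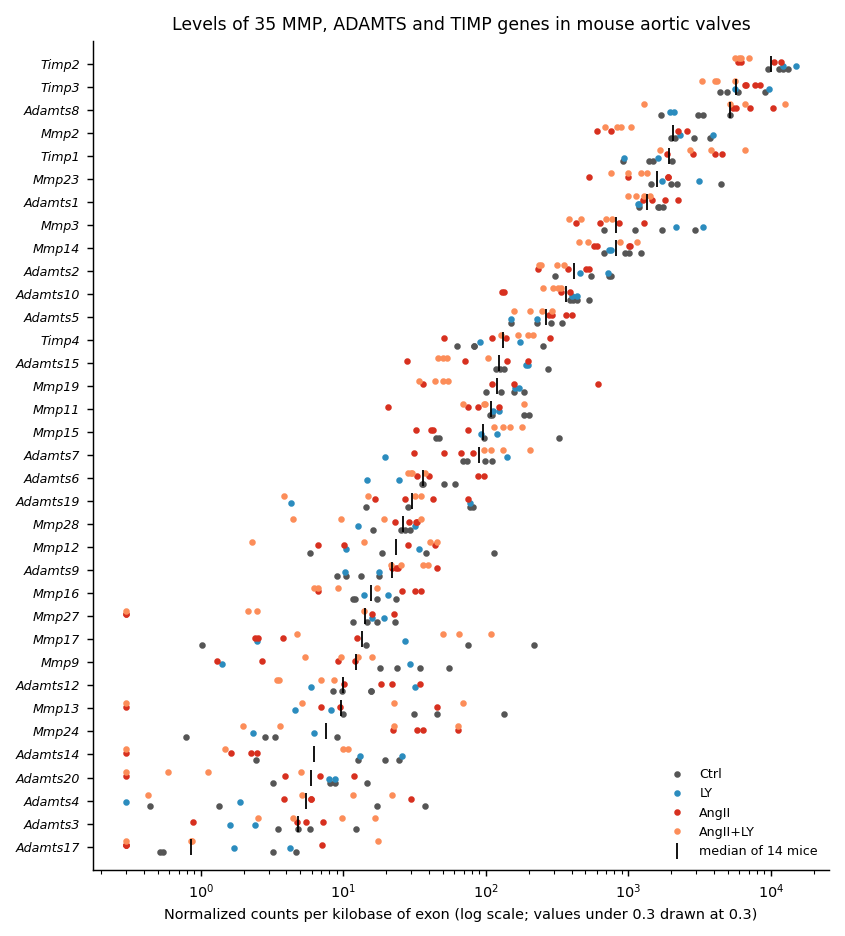
Normalized counts per kilobase of exon (log axis) of the 35 tested members in each of the 14 mice, coloured by group, with the median of the 14 as a bar. Timp2 (median 10000), Timp3 (5730) and Adamts8 (5200) stand at the top, and values under 0.3 are drawn at 0.3.

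A gene was called where its p, adjusted by Benjamini-Hochberg over all 19145 genes tested, was under 0.05 with a log2 fold change beyond 0.5 in either direction. By edgeR's quasi-likelihood test 0 members and 0 genes (0.0%) were called in each comparison, while the smallest adjusted p over all genes was 0.0573 for AngII against Ctrl and 0.0568 for AngII+LY against AngII. At an unadjusted p under 0.05 there were 11 of 35 members (31.4%) for AngII against Ctrl, 4 higher and 7 lower, beside 25.2% of all genes (13.4% higher and 11.7% lower). For AngII+LY against AngII the number was 10 (28.6%), of which 3 lay higher and 7 lower, beside 22.5% of all genes (10.1% higher and 12.4% lower). Between AngII+LY and Ctrl the number was again 10 (28.6%), with 3 on the higher and 7 on the lower side, beside 11.0% (4.89% higher and 6.14% lower). The first pair of shares lay near those of all genes. Marker lists differed in the same comparisons: for AngII against Ctrl, 6 of 8 adipocyte markers (median log2 fold change -1.63), 5 of 8 macrophage markers (-1.42) and all 5 smooth muscle markers (-3.31) were lower at that p. The summed adipocyte markers, 1512 to 6433 normalized counts in AngII and 7606 to 17778 in Ctrl, did not overlap, and the smooth muscle sums, 11346 to 21343 and 11377 to 438261, did. The smooth muscle sums of Ctrl 1 and Ctrl 2 were 438261 and 68283, and those of Ctrl 3 and Ctrl 4 were 11377 and 11819. For LY against Ctrl, 4 of 5 smooth muscle markers were also lower at that p (-3.92), beside 0.763% of all genes. The part of these markers in the members' values was not tested. DESeq2's Wald test at the same cut-off called 6 members for AngII against Ctrl (17.1%, beside 13.8% of all genes), 3 higher (9.15% of all genes) and 3 lower (4.69%). It called 5 for AngII+LY against AngII (14.3%, beside 10.8%), 2 higher (5.3%) and 3 lower (5.47%). In the comparison of AngII+LY with Ctrl it called 5 (14.3%, beside 1.79%), 2 higher (0.867%) and 3 lower (0.925%). The comparisons share mice, so their counts are not independent of each other. In the text below, "higher" and "lower" describe fitted values that did not pass edgeR's adjusted threshold.

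The median log2 fold change of the 35 members was -0.44 for AngII against Ctrl (all genes -0.06), -0.30 for AngII+LY against AngII (all genes -0.02) and -0.54 for AngII+LY against Ctrl (all genes -0.02). Correcting the libraries for the GC content of genes moved the median of all genes from -0.06 to 0.11 for AngII against Ctrl and from -0.02 to 0.16 for AngII+LY against Ctrl. Directions of members with small changes can therefore depend on this correction, and the corrected value is given below for some of them only. Without AngII 3 and AngII 4 together, 3 members (Adamts9, Mmp15 and Mmp24) stood at an unadjusted p under 0.05 for AngII against Ctrl, beside 8.62% of all genes. The count was 6 without Ctrl 1, beside 20.5% of all genes, and 7 without AngII 4, beside 16.6%. Without both AngII 3 and AngII 4, 9 members reached that p for AngII+LY against AngII, beside 14.9% of all genes. Of these, 5 were among the 10 with all mice (Adamts6, Adamts12, Mmp15, Mmp19 and Timp3), and the other 4 were Adamts2, Adamts15, Mmp2 and Timp2. With the GC correction 7 members reached that p for AngII+LY against AngII, beside 15.4% of all genes, and 4 of them were among the 10 (Adamts1, Adamts12, Mmp17 and Mmp19). The other 3 were Adamts2, Mmp2 and Timp2.

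**Figure D2:**
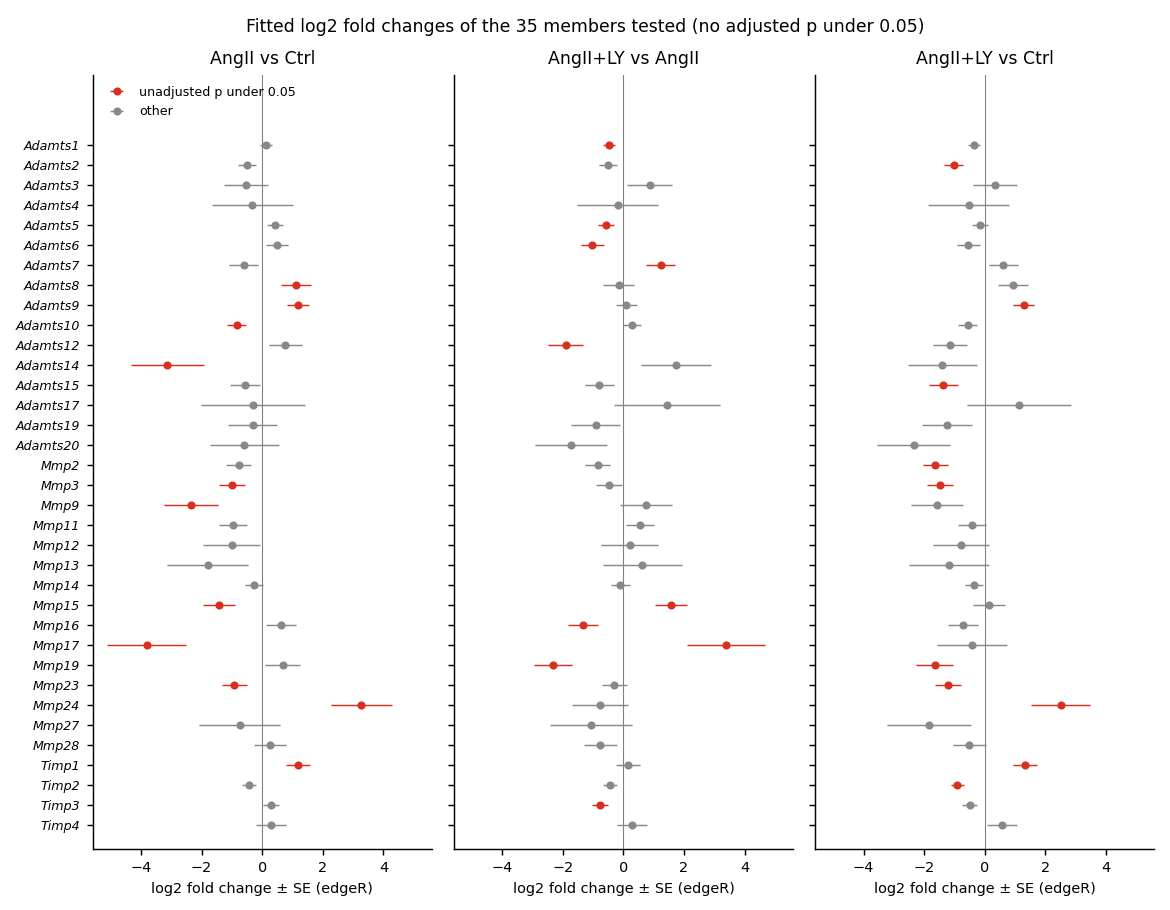
Fitted log2 fold changes (edgeR, horizontal axis, lines ± standard error) of the 35 tested members in 3 comparisons, with those at an unadjusted p under 0.05 in red. For AngII against Ctrl, 11 members are red, with Mmp24 (3.27) farthest to the right and Mmp17 (-3.82) farthest to the left; adjusted p lay above 0.05 for every member.

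Among the inhibitors, Timp1 was higher and Timp2 lower after AngII with LY272015, each against Ctrl, and Timp3 was lower in AngII+LY than in AngII. TIMP1 is the inducible, secreted inhibitor and blocks most secreted MMPs. Timp1 (ENSMUSG00000001131, chromosome X, 20736316 to 20740976) had 3965, 2729, 1805 and 2887 in Ctrl, 1839 and 3172 in LY, 3644, 8014, 5530 and 8878 in AngII and 5303, 7487, 12829 and 3277 in AngII+LY mice, in normalized counts. All AngII+LY and AngII mice except AngII 1 and AngII+LY 4 lay above the highest Ctrl mouse. The log2 fold change was 1.19 ± 0.40 (standard error) for AngII against Ctrl, which is 2.29-fold (edgeR adjusted p = 0.0971; DESeq2 adjusted p = 0.0182; exact permutation p = 0.0571). It was 1.61 with the GC correction and 1.03 without AngII 3 and AngII 4. For AngII+LY against Ctrl it was 1.34 ± 0.40 (edgeR adjusted p = 0.272; DESeq2 adjusted p = 0.0288), and between AngII+LY and AngII the groups overlapped widely (0.15 ± 0.39; -0.02 with the GC correction).

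TIMP2 inhibits MMPs and, with MMP14, takes part in activating pro-MMP2 at the cell surface. Timp2 (ENSMUSG00000017466, chromosome 11, 118191887 to 118246566) had 58444, 51340, 42674 and 53976 in Ctrl, 54029 and 66811 in LY, 46902, 52154, 27366 and 26140 in AngII and 26592, 27505, 31382 and 25146 in AngII+LY mice, in normalized counts. Every AngII+LY mouse lay below every Ctrl and LY mouse, and the AngII mice were split, with AngII 1 and 2 among the Ctrl values and AngII 3 and 4 among the AngII+LY values. AngII+LY was 1.87-fold lower than Ctrl (log2 fold change -0.90 ± 0.23; edgeR adjusted p = 0.23; DESeq2 adjusted p = 0.00988; exact permutation p = 0.0286, the smallest that 4 mice against 4 allow). For AngII against Ctrl the log2 fold change was -0.44 ± 0.23, but 0.05 with the GC correction and -0.06 without AngII 3 and AngII 4. For AngII+LY against AngII it was -0.46 ± 0.23, and -0.84 without those mice.

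TIMP3 is the matrix-bound inhibitor with the widest reach over ADAMTS and ADAM proteases. Timp3 (ENSMUSG00000020044, chromosome 10, 86136236 to 86185371) had 40123, 47602, 35937 and 74235 in Ctrl, 45574 and 79294 in LY, 54416, 68925, 53693 and 63093 in AngII and 32965, 34256, 45756 and 26765 in AngII+LY mice, in normalized counts. The AngII+LY values all stood under the AngII values, while Ctrl and AngII overlapped. AngII+LY was 1.72-fold lower than AngII (log2 fold change -0.78 ± 0.26; edgeR adjusted p = 0.111; DESeq2 adjusted p = 0.0278; exact permutation p = 0.0286), and the difference was -0.82 without AngII 3 and AngII 4 and -0.51 with the GC correction. For AngII against Ctrl it was 0.28 ± 0.26. The gene lies inside Syn3 on the opposite strand and shares 21.3% of its exon bases with it; Syn3 had a mean of 53.8 counts against 51500 for Timp3.

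TIMP4 is the inhibitor best known from heart muscle. Timp4 (ENSMUSG00000030317, chromosome 6, 115187773 to 115229336) had 637, 1941, 642 and 483 in Ctrl, 1340 and 711 in LY, 861, 394, 2182 and 1072 in AngII and 1531, 1300, 1667 and 994 in AngII+LY mice, in normalized counts, with all groups overlapping. Its log2 fold change was 0.28 ± 0.50 for AngII against Ctrl, and -0.56 without AngII 3 and AngII 4. Across the 14 mice its log2 values followed the mean of the 10 cardiomyocyte markers (Pearson's r = 0.72, permutation p = 0.004, adjusted p = 0.016 over 4 relations; Spearman's rho = 0.74, permutation p = 0.0035). Leaving out the 2 mice farthest from the median gave r = 0.87, and it was 0.68 on deviations from the group means. With the adipocyte markers it was 0.02 (permutation p = 0.94). Timp4 lies inside Syn2 on the opposite strand and shares 14.7% of its exon bases with it.

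Within a library, the ratio of Timp1 to Timp2 per kilobase was 15.5, 12.1, 9.65 and 12.2% in Ctrl, 7.76 and 10.8% in LY, 17.7, 35, 46.1 and 77.5% in AngII, and 45.5, 62.1, 93.2 and 29.7% in AngII+LY. Every mouse that received AngII lay above every mouse that did not. The ratio of Timp1 to Timp3 overlapped between Ctrl (16.2 to 41.1%) and AngII (27.9 to 58.6%). Timp2 and Timp3 together made up 89.5 to 93.3% of the TIMP level in Ctrl and 65.1 to 83.2% in AngII+LY. In AngII they made up 74.4 to 89.7%, which overlapped Ctrl. The ratios were chosen after their values were seen and are a description without a test.

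**Figure D3:**
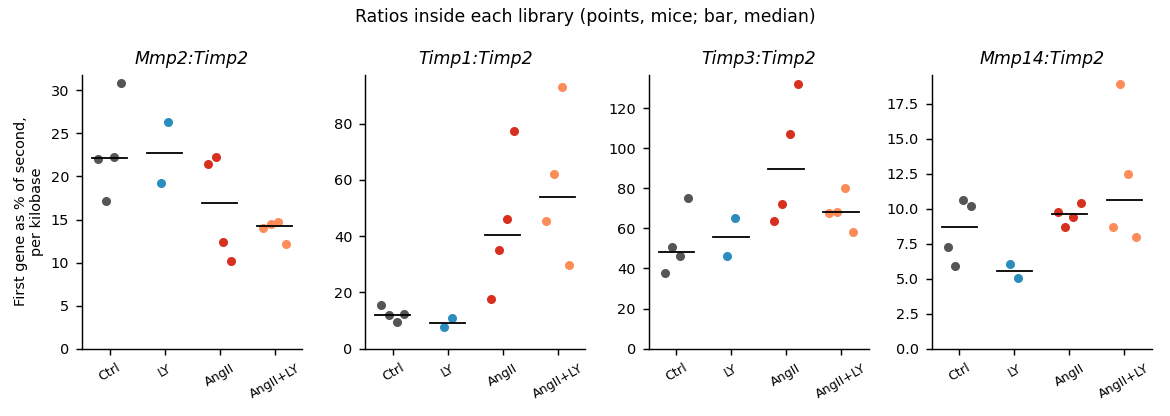
Level of a gene as a percentage of that of Timp2 in the same library, per kilobase (vertical axes from 0), for Mmp2, Timp1, Timp3 and Mmp14 in each mouse, with the group median as a bar. Timp1 reaches 17.7 to 93.2% of Timp2 in the mice that received AngII and 7.76 to 15.5% in the others, and Mmp2 12.2 to 14.7% in AngII+LY against 17.2 to 30.8% in Ctrl.

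The gelatinases cut denatured collagen and type IV collagen, and both had lower fitted levels in AngII and in AngII+LY than in Ctrl. Mmp2 (ENSMUSG00000031740, chromosome 8, 93553902 to 93580049), the constitutive gelatinase of stromal cells, had 10159, 7010, 7485 and 13171 in Ctrl, 8197 and 13921 in LY, 7955, 9195, 2677 and 2118 in AngII and 2947, 3157, 3657 and 2433 in AngII+LY mice, in normalized counts. Every AngII+LY mouse lay below every Ctrl mouse, and AngII was again split, with AngII 1 and 2 near Ctrl and AngII 3 and 4 near AngII+LY. AngII+LY was 3.10-fold lower than Ctrl (log2 fold change -1.63 ± 0.42; edgeR adjusted p = 0.229; DESeq2 adjusted p = 0.00707; exact permutation p = 0.0286). For AngII against Ctrl the log2 fold change was -0.78 ± 0.41, and -0.14 without AngII 3 and AngII 4. For AngII+LY against AngII it was -0.85 ± 0.41, and -1.49 without those mice. Gm45472, a long noncoding gene on the opposite strand with a mean of 10.1 counts, shares 24.3% of the exon bases of Mmp2.

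Mmp9 (ENSMUSG00000017737, chromosome 2, 164780439 to 164797771), the gelatinase of leukocytes and remodelling tissue, was scarce, with 205, 128, 67.0 and 89.0 in Ctrl, 110 and 5.25 in LY, 34.1, 45.0, 4.81 and 9.93 in AngII and 59.0, 35.5, 20.2 and 46.9 in AngII+LY mice, in normalized counts. Every AngII mouse lay below every Ctrl mouse, 5.09-fold in the fit (log2 fold change -2.35 ± 0.89; edgeR adjusted p = 0.128; exact permutation p = 0.0286), and so did every AngII+LY mouse (-1.59 ± 0.86; edgeR adjusted p = 0.531). Without AngII 3 and AngII 4 the difference between AngII and Ctrl was -1.62 on the log2 scale (edgeR unadjusted p = 0.125). The counts of 5 members did not overlap between AngII and Ctrl (14.3%), beside 15.0% of all genes: Adamts8, Adamts9 and Mmp24 were higher (7.46% of all genes were), Mmp9 and Adamts10 lower (7.56%). Macrophages are a known source of Mmp9 and Mmp12, and their markers were also lower in AngII than in Ctrl (5 of 8 at an unadjusted p under 0.05, summed level 25740 to 48557 against 27957 to 109908), and their part in the Mmp9 values was not tested. With the mean of the 4 tested neutrophil markers Mmp9 gave no relation past the threshold (r = 0.29, permutation p = 0.31; rho = 0.11, permutation p = 0.71; r = -0.47 without the 2 mice farthest from the median), and of the 8 neutrophil markers listed, Elane was at 0 in Ctrl and Mpo in AngII. Mmp12, the macrophage elastase, ran from 16.5 to 831 normalized counts, with r = 0.46 to the macrophage markers (permutation p = 0.1; rho = 0.38, permutation p = 0.18; r = 0.08 without the 2 mice farthest from the median).

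Stromelysins cut a wide range of matrix proteins and activate other proMMPs. Mmp3 (ENSMUSG00000043613, chromosome 9, 7445822 to 7455975) had 5334, 3092, 1998 and 1224 in Ctrl, 5976 and 3873 in LY, 2330, 1564, 780 and 1138 in AngII and 1248, 688, 836 and 1392 in AngII+LY mice, in normalized counts. The LY mice held the highest and the third highest value of all, and the AngII+LY mice lay below all Ctrl mice but Ctrl 4. The log2 fold change was -1.0 ± 0.43 for AngII against Ctrl (edgeR adjusted p = 0.163; -0.53 without Ctrl 1 and -0.58 without AngII 3 and AngII 4) and -1.48 ± 0.43 for AngII+LY against Ctrl (edgeR adjusted p = 0.265; DESeq2 adjusted p = 0.0357). Mmp11, which is secreted already active, gave -0.97 ± 0.46 for AngII against Ctrl (edgeR adjusted p = 0.204). Mmp13 was the only collagenase with enough counts: it ranged from 0 to 359 normalized counts, was at 0 in AngII 4 and AngII+LY 3, and gave -1.80 ± 1.33 for AngII against Ctrl (edgeR adjusted p = 0.421).

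Of the 5 tested membrane-type MMPs, which act at the cell surface, 1 was higher in AngII than in Ctrl at an unadjusted p under 0.05 and 2 were lower. Of all genes, 13.4% were higher and 11.7% lower. Against AngII, AngII+LY had 2 higher and 1 lower, beside 10.1% and 12.4% of all genes. Mmp14 (ENSMUSG00000000957, chromosome 14, 54668878 to 54682821), the cell-surface activator of proMMP2, had 5860, 4182, 6264 and 7597 in Ctrl, 4532 and 4663 in LY, 6328, 6272, 3561 and 3749 in AngII and 3202, 7171, 5441 and 2784 in AngII+LY mice, in normalized counts, with all groups overlapping. Its log2 fold change was -0.26 ± 0.30 for AngII against Ctrl, but 0.29 with the GC correction. Mmp15 (ENSMUSG00000031790, chromosome 8, 96078895 to 96101708) had 241, 1776, 526 and 254 in Ctrl, 645 and 502 in LY, 230, 225, 407 and 175 in AngII and 710, 613, 793 and 964 in AngII+LY mice, with no overlap between AngII+LY, the higher group, and AngII. The difference was 2.96-fold (log2 fold change 1.57 ± 0.54; edgeR adjusted p = 0.121; DESeq2 adjusted p = 0.0295; exact permutation p = 0.0286). Against Ctrl, AngII gave -1.43 ± 0.54, which was -0.39 without Ctrl 2, -0.68 with the GC correction and -1.62 without AngII 3 and AngII 4. Against AngII, AngII+LY gave 1.13 with the GC correction and 1.76 without those mice.

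Mmp17 (ENSMUSG00000029436, chromosome 5, 129661084 to 129688163), anchored by a glycolipid, had 1529, 526, 102 and 7.18 in Ctrl, 190 and 17.5 in LY, 17.6, 87.9, 16.8 and 26.5 in AngII and 33.0, 453, 353 and 761 in AngII+LY mice, in normalized counts. Ctrl spanned the whole range of the series, and 3 of the 4 AngII+LY mice lay above every AngII mouse. The log2 fold change was -3.82 ± 1.31 for AngII against Ctrl (edgeR adjusted p = 0.103; DESeq2 adjusted p = 0.00543; exact permutation p = 0.229; -2.48 without Ctrl 1) and 3.39 ± 1.29 for AngII+LY against AngII (edgeR adjusted p = 0.145; DESeq2 adjusted p = 0.0147). Without AngII 3 and AngII 4 these values were -3.34 (edgeR unadjusted p = 0.0913) and 2.91 (edgeR unadjusted p = 0.127). The summed smooth muscle markers stood beside it at 438261, 68283, 11377 and 11819 in Ctrl, 9675 and 12171 in LY, 11529, 14976, 21343 and 11346 in AngII and 12694, 89044, 14402 and 82621 in AngII+LY. Ctrl 1 and Ctrl 2, which had the most Mmp17 in Ctrl, also had the highest smooth muscle sums of that group, as did AngII+LY 2 and 4 in theirs. AngII+LY 3 had 353 normalized counts of Mmp17 beside a sum of 14402. In AngII the most Mmp17 was in AngII 2 and the highest sum in AngII 3. In LY the most Mmp17 was in LY 1 and the higher sum in LY 2. The part of these markers in the difference was not tested.

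Mmp24 (ENSMUSG00000027612, chromosome 2, 155617098 to 155660319), best known from the nervous system, had 22.6, 61.6, 5.40 and 19.4 in Ctrl, 42.2 and 15.7 in LY, 151, 437, 248 and 225 in AngII and 24.7, 155, 432 and 13.4 in AngII+LY mice, in normalized counts. Every AngII mouse lay above every Ctrl and LY mouse, and the AngII+LY mice were split, with AngII+LY 1 and 4 among the Ctrl values. AngII was 9.67-fold higher than Ctrl (log2 fold change 3.27 ± 1.0; edgeR adjusted p = 0.0825; DESeq2 adjusted p = 0.00477; exact permutation p = 0.0286), 3.42 on the log2 scale without AngII 3 and AngII 4 and 3.92 with the GC correction. AngII+LY against Ctrl gave 2.51 ± 0.97 (edgeR adjusted p = 0.362), and 1.23 without AngII+LY 3. The gene shares 10.3% of its exon bases with Mmp24os1 on the opposite strand, which had more counts (mean 1420 against 124) and the other direction (log2 fold change -0.77 ± 0.22; edgeR adjusted p = 0.0699). Whether the counting used strand is not given in the sources used here. Mmp16 (ENSMUSG00000028226, chromosome 4, 17852844 to 18125390) had 357, 177, 184 and 263 in Ctrl, 213 and 311 in LY, 101, 482, 534 and 390 in AngII and 94.7, 138, 101 and 264 in AngII+LY mice, with the AngII+LY mice low (log2 fold change -1.33 ± 0.50 against AngII; edgeR adjusted p = 0.141; -0.66 with the GC correction and -0.96 without AngII 3 and AngII 4).

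Of the 5 other MMPs tested, Mmp19 and Mmp23 reached an unadjusted p under 0.05. Mmp19 (ENSMUSG00000025355, chromosome 10, 128626773 to 128636695), a secreted MMP that cuts basement membrane proteins, had 560, 457, 355 and 654 in Ctrl, 570 and 601 in LY, 558, 390, 129 and 2177 in AngII and 177, 120, 157 and 192 in AngII+LY mice, in normalized counts. AngII 4 held the highest value of the series and AngII 3 a value among those of AngII+LY, and every AngII+LY mouse lay below every Ctrl mouse. AngII+LY was 5.01-fold lower than AngII (log2 fold change -2.32 ± 0.62; edgeR adjusted p = 0.0713, the lowest of any member; DESeq2 adjusted p = 0.00317; exact permutation p = 0.114) and 3.14-fold lower than Ctrl (edgeR adjusted p = 0.344). The difference from AngII was -1.15 without AngII 4 and -1.55 without AngII 3 and AngII 4. Mmp19 lies inside Tmem198b on the opposite strand and shares 30.6% of its exon bases with it; Tmem198b had a log2 fold change of 0.06 ± 0.31 in the same comparison.

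Mmp23 (ENSMUSG00000029061, chromosome 4, 155735111 to 155738378), an unusual MMP held in the membrane by its amino terminus, had 12056, 5387, 3904 and 5889 in Ctrl, 4613 and 8428 in LY, 5120, 5127, 2700 and 1423 in AngII and 2043, 2684, 3658 and 3305 in AngII+LY mice, in normalized counts. Ctrl 1 was the highest, and every AngII+LY mouse lay below every Ctrl mouse. The log2 fold change was -0.92 ± 0.41 for AngII against Ctrl (edgeR adjusted p = 0.183; -0.49 without Ctrl 1, -0.40 with the GC correction and -0.41 without AngII 3 and AngII 4) and -1.22 ± 0.42 for AngII+LY against Ctrl (edgeR adjusted p = 0.327; exact permutation p = 0.0286; -0.79 without Ctrl 1). Mmp27 was at 0 in 3 mice and reached 51.2 normalized counts, and Mmp28, an epithelial MMP, ranged from 33.5 to 265; neither differed between groups at an unadjusted p under 0.05.

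**Figure D4:**
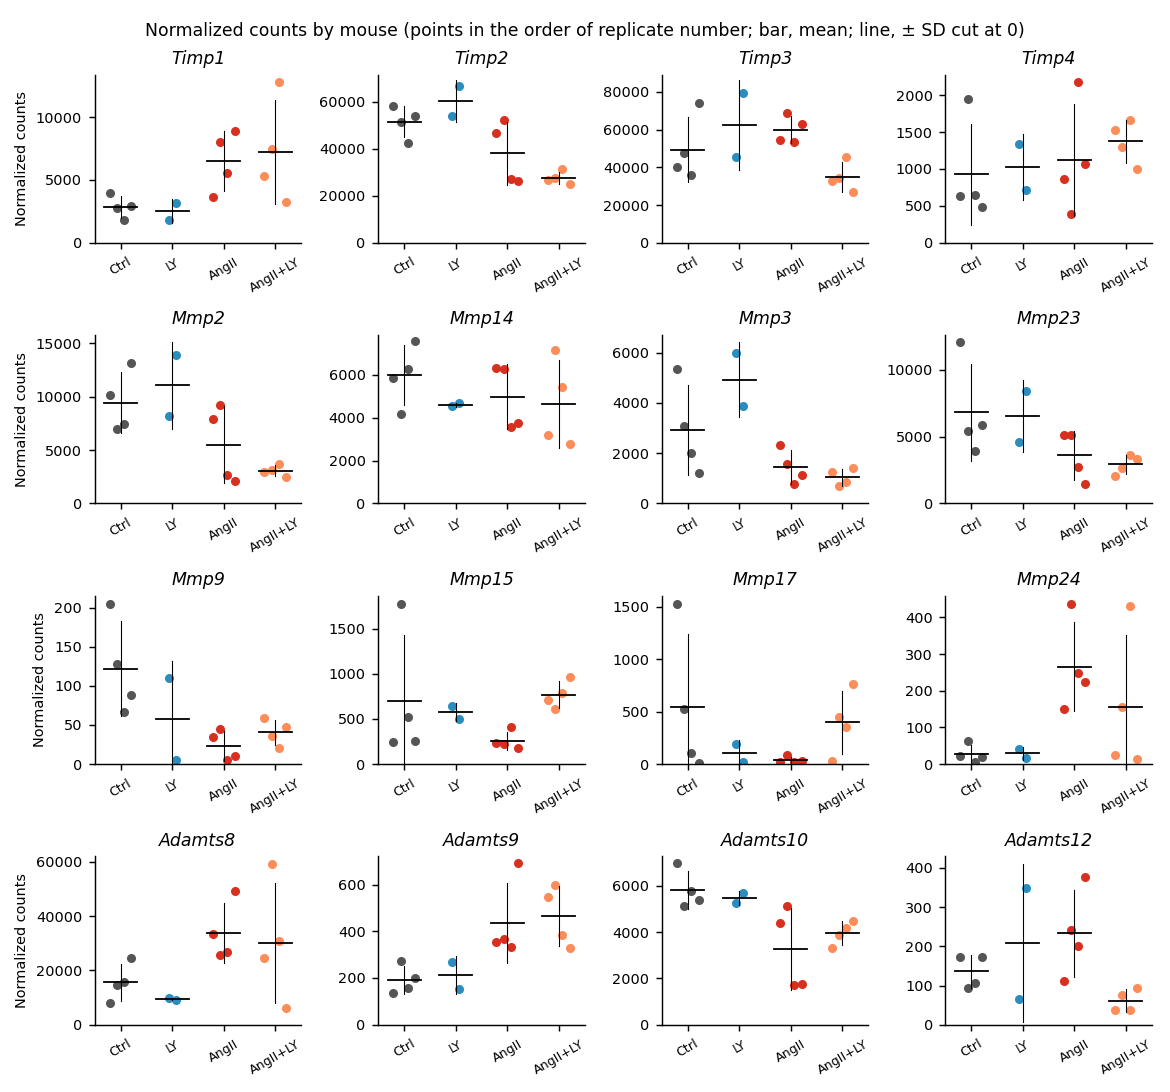
Normalized counts of 16 members in each mouse (vertical axes from 0, each gene on its own scale), with points in the order of the replicate number, the group mean as a bar and ± SD as a line that stops at 0. Adamts9 and Mmp24 in AngII lie above all Ctrl mice, Timp2 and Mmp2 in AngII+LY lie below all Ctrl mice, and AngII 3 and AngII 4 lie below AngII 1 and AngII 2 for Timp2, Mmp2 and Adamts10.

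Of the 7 proteases that cut versican and aggrecan, 2 were higher in AngII than in Ctrl at an unadjusted p under 0.05, beside 13.4% of all genes. At that p, 2 others had lower values in AngII+LY than in AngII, beside 12.4% of all genes. Adamts8 (ENSMUSG00000031994, chromosome 9, 30853809 to 30875134), the protease with the highest median level per kilobase of the family, had 7959, 14516, 15858 and 24496 in Ctrl, 9832 and 9276 in LY, 33572, 25568, 26795 and 49236 in AngII and 24578, 59311, 30931 and 6028 in AngII+LY mice, in normalized counts. Every AngII mouse lay above every Ctrl and LY mouse, while AngII+LY ran from below Ctrl in AngII+LY 4 to the highest value in AngII+LY 2. AngII was 2.15-fold higher than Ctrl (log2 fold change 1.11 ± 0.50; edgeR adjusted p = 0.19; DESeq2 adjusted p = 0.0663; exact permutation p = 0.0286), and 0.91 on the log2 scale without AngII 3 and AngII 4. Its neighbour Adamts15, transcribed the other way within the same 64.7 kb of chromosome 9, was lower in AngII+LY than in Ctrl without overlap (-1.37 ± 0.48; edgeR adjusted p = 0.334) and gave -0.57 ± 0.48 for AngII against Ctrl.

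Adamts9 (ENSMUSG00000030022, chromosome 6, 92749680 to 92920520), a versican protease of the developing heart, had 136, 271, 159 and 200 in Ctrl, 270 and 155 in LY, 354, 367, 333 and 692 in AngII and 546, 597, 386 and 328 in AngII+LY mice, in normalized counts. Every mouse that received AngII, with or without LY272015, lay above every Ctrl mouse. AngII was 2.27-fold higher than Ctrl (log2 fold change 1.18 ± 0.36; edgeR adjusted p = 0.08; DESeq2 adjusted p = 0.0119; exact permutation p = 0.0286) and AngII+LY 2.42-fold (1.28 ± 0.36; edgeR adjusted p = 0.254; DESeq2 adjusted p = 0.0226). The difference for AngII was 1.06 with the GC correction and 0.91 without AngII 3 and AngII 4. Between AngII+LY and AngII it was 0.09 ± 0.35.

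Adamts1 (ENSMUSG00000022893, chromosome 16, 85590579 to 85600009) and Adamts5 (ENSMUSG00000022894, chromosome 16, 85653061 to 85698716), versican- and aggrecan-cutting neighbours within 108 kb of chromosome 16, had lower fitted values with LY272015 added to AngII. Adamts1 had 8849, 6466, 9588 and 8987 in Ctrl, 6518 and 6405 in LY, 6905, 9888, 8034 and 12130 in AngII and 7059, 5476, 7844 and 6178 in AngII+LY mice, in normalized counts, and Adamts5 had 2492, 1640, 3138 and 3724 in Ctrl, 1635 and 2486 in LY, 3059, 4398, 3964 and 3213 in AngII and 3212, 2698, 2226 and 1736 in AngII+LY mice. For both genes AngII+LY overlapped AngII and Ctrl, while the LY mice lay below the AngII mice. The log2 fold changes against AngII were -0.48 ± 0.20 (edgeR adjusted p = 0.179) and -0.57 ± 0.26 (edgeR adjusted p = 0.217), and those for AngII against Ctrl were 0.12 ± 0.20 and 0.41 ± 0.26. With the GC correction the values against AngII were -0.56 for Adamts1 and -0.21 for Adamts5 (edgeR unadjusted p = 0.408). Without AngII 3 and AngII 4 they were -0.34 for Adamts1 (edgeR unadjusted p = 0.139) and -0.60 for Adamts5 (edgeR unadjusted p = 0.0948). Adamts4 and Adamts20 were scarce, from 0 to 242 and from 0 to 177 normalized counts, and did not reach an unadjusted p under 0.05 in any comparison.

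The procollagen N-proteinases remove the amino-terminal propeptide so that collagen molecules can form fibrils. Adamts2 (ENSMUSG00000036545, chromosome 11, 50492787 to 50698400) had 7130, 6885, 2901 and 5195 in Ctrl, 4312 and 6809 in LY, 5014, 4798, 3582 and 2194 in AngII and 2256, 2321, 3012 and 3334 in AngII+LY mice, in normalized counts. AngII+LY was 2.02-fold lower than Ctrl, where Ctrl 3 lay among the AngII+LY values (log2 fold change -1.02 ± 0.31; edgeR adjusted p = 0.28). For AngII against Ctrl it was -0.50 ± 0.31, and -0.01 with the GC correction. Adamts14 (ENSMUSG00000059901, chromosome 10, 61032891 to 61109232) was rare, with 114, 142, 74.6 and 14.4 in Ctrl, 151 and 76.1 in LY, 14.5, 9.54, 13.2 and 0 in AngII and 0, 58.0, 8.64 and 63.2 in AngII+LY mice. AngII lay below all Ctrl mice but Ctrl 4 (-3.13 ± 1.21; edgeR adjusted p = 0.133; exact permutation p = 0.0571), and AngII+LY spread from 0 to 63.2. The difference from Ctrl was -2.84 without AngII 3 and AngII 4 (edgeR unadjusted p = 0.0836). Adamts3 ranged from 9.61 to 181 normalized counts and gave -0.53 ± 0.73 for AngII against Ctrl.

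Among the remaining ADAMTS genes, Adamts10 (ENSMUSG00000024299, chromosome 17, 33742987 to 33772758), which acts on fibrillin microfibrils, had 6990, 5148, 5764 and 5393 in Ctrl, 5266 and 5692 in LY, 4401, 5133, 1724 and 1774 in AngII and 3297, 3889, 4198 and 4459 in AngII+LY mice, in normalized counts. The AngII and AngII+LY mice all lay below the 4 Ctrl mice, AngII 2 only just, and AngII 3 and 4 were the lowest of all. The log2 fold change was -0.84 ± 0.31 for AngII against Ctrl (edgeR adjusted p = 0.121; DESeq2 adjusted p = 0.0437; exact permutation p = 0.0286) and -0.29 without AngII 3 and AngII 4. Adamts6 (ENSMUSG00000046169, chromosome 13, 104424343 to 104633203), its close relative, had 476, 395, 281 and 283 in Ctrl, 114 and 193 in LY, 257, 755, 311 and 685 in AngII and 292, 234, 222 and 237 in AngII+LY mice and was 2.04-fold lower in AngII+LY than in AngII (log2 fold change -1.03 ± 0.38; edgeR adjusted p = 0.133; DESeq2 adjusted p = 0.0547). That difference was -0.61 with the GC correction (edgeR unadjusted p = 0.103) and -1.04 without AngII 3 and AngII 4.

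Adamts7 and Adamts12 both cut cartilage oligomeric matrix protein and differed in opposite directions between AngII+LY and AngII. Adamts7 (ENSMUSG00000032363, chromosome 9, 90045062 to 90090124) had 470, 631, 706 and 442 in Ctrl, 124 and 887 in LY, 520, 428, 198 and 321 in AngII and 693, 612, 835 and 1298 in AngII+LY mice, in normalized counts, and the lowest AngII+LY value exceeded the highest AngII value (1.23 ± 0.48; edgeR adjusted p = 0.157; DESeq2 adjusted p = 0.0594; exact permutation p = 0.0286). It was 0.85 with the GC correction (edgeR unadjusted p = 0.0842) and 0.86 without AngII 3 and AngII 4 (edgeR unadjusted p = 0.177). Adamts12 (ENSMUSG00000047497, chromosome 15, 11064876 to 11349318) had 173, 93.3, 107 and 173 in Ctrl, 65.2 and 350 in LY, 112, 241, 201 and 377 in AngII and 38.4, 75.8, 37.4 and 94.8 in AngII+LY mice, and the highest AngII+LY value was under the lowest AngII value, 3.75-fold in the fit (log2 fold change -1.91 ± 0.57; edgeR adjusted p = 0.0874; DESeq2 adjusted p = 0.014; exact permutation p = 0.0286), and the log2 value was -1.51 without AngII 3 and AngII 4. With Mmp15 and Timp3 these were the 4 members that did not overlap between AngII+LY and AngII (11.4%), beside 11.1% of all genes (5.45% higher and 5.66% lower). Between AngII+LY and Ctrl 8 members did not overlap (22.9%), beside 8.16% of all genes: Adamts9 was higher (3.27% of all genes were), and Timp2, Mmp2, Mmp9, Mmp19, Mmp23, Adamts10 and Adamts15 were lower (4.89%). In that comparison 7 of 10 interstitial cell markers were lower (median log2 fold change -0.94) and 7 of 10 cardiomyocyte markers higher (1.11) at an unadjusted p under 0.05, and their part in these values was not tested. Adamts19, whose loss causes heart valve disease in people and mice, ranged from 54.7 to 1174 normalized counts with all groups overlapping, and Adamts17 from 0 to 195.

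LY272015 given alone was represented by 2 mice. Against Ctrl, 1 of 35 members stood at an unadjusted p under 0.05 (2.86%, beside 1.39% of all genes, 0.627% higher and 0.763% lower): Adamts6, at -1.22 ± 0.48 on the log2 scale (edgeR adjusted p = 1). Its LY values, 114 and 193, lay below the lowest Ctrl value, 281, and 2 mice against 4 cannot give an exact permutation p below 0.0667. In the fit without Ctrl 1, Adamts6 did not reach an unadjusted p under 0.05. The difference between the effect of LY272015 with AngII and its effect without AngII was tested as an interaction. At an unadjusted p under 0.05 there were 4 members (11.4%, beside 13.3% of all genes, 5.66% higher and 7.64% lower): Timp3 (-1.12 ± 0.41), Mmp19 (-2.53 ± 0.92) and Adamts12 (-2.51 ± 0.86) on the lower side and Mmp17 (5.77 ± 2.15) on the higher side. Without AngII 3 and AngII 4 these values were -1.16 for Timp3, -1.76 for Mmp19, -2.12 for Adamts12 and 5.29 for Mmp17. In that fit Timp3, Mmp19 and Adamts12 still reached an unadjusted p under 0.05 and Mmp17 did not. The edgeR adjusted p of the 4 lay between 0.295 and 0.307, the values without LY 2 were -0.66 for Timp3 and -0.84 for Adamts12, that of Mmp19 without AngII 4 was -1.36, and DESeq2 called 0 members (beside 1.1% of all genes, 0.454% higher and 0.642% lower). For LY against Ctrl DESeq2 also called 0 members, beside 0.11% of all genes. With the GC correction 7 members reached an unadjusted p under 0.05 (edgeR) in the interaction, beside 8.17% of all genes. Adamts12, Mmp17 and Mmp19 were among them and Timp3 was not, and the others were Adamts2, Adamts3, Mmp2 and Timp2.

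Other genes of the pathway were taken from lists of ADAMTS-like proteins, membrane ADAMs, activators and other inhibitors, and matrix substrates. Their counts stand beside 13.4% of all genes higher and 11.7% lower in AngII against Ctrl at an unadjusted p under 0.05. In AngII+LY against AngII the shares of all genes were 10.1% and 12.4%. Of 10 tested membrane ADAMs, which shed proteins from the cell surface, 3 were higher in AngII than in Ctrl at an unadjusted p under 0.05, and AngII+LY had 2 lower against AngII. Adam10 gave 1.19 ± 0.32 on the log2 scale for AngII against Ctrl (edgeR adjusted p = 0.0619) and -1.19 ± 0.32 for AngII+LY against AngII (edgeR adjusted p = 0.0713), 2 comparisons that share the AngII mice. Of 6 ADAMTS-like proteins, which lack the protease domain, 2 were lower in AngII, Adamtsl4 (-0.80 ± 0.26) and Adamtsl5 (-0.69 ± 0.30). Of 16 tested activators and other inhibitors, 1 was higher (Tfpi2, 1.5 ± 0.65) and 2 lower in AngII (A2m, -2.11 ± 0.82, a broad protease trap, and Lrp1, -0.90 ± 0.34, the receptor that clears protease complexes). Against AngII, AngII+LY had 1 of these genes higher, the MMP inducer basigin (Bsg, 0.75 ± 0.27; edgeR adjusted p = 0.134), and 1 lower, the membrane-anchored inhibitor Reck (-0.65 ± 0.28).

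Of 21 tested matrix substrates, 4 were higher at an unadjusted p under 0.05 in AngII against Ctrl and 2 were lower, beside 13.4% and 11.7% of all genes. Against AngII, AngII+LY had 3 higher and 7 lower, beside 10.1% and 12.4% of all genes. Fibronectin (Fn1) gave -0.63 ± 0.21, fibrillin 1 (Fbn1) 0.73 ± 0.25 and Comp, the substrate of Adamts7 and Adamts12, -1.19 ± 0.44 on the log2 scale for AngII against Ctrl. The small proteoglycans Lum (-1.46 ± 0.32) and Dcn (-0.99 ± 0.29) and the basement membrane gene Nid1 (-0.85 ± 0.18) had the smallest p among the substrates for AngII+LY against AngII (edgeR adjusted p = 0.0588, 0.0848 and 0.0588). Versican (Vcan), the main substrate of the proteoglycan-cutting group and singled out after its values were seen, gave 0.98 ± 0.42 for AngII against Ctrl and -1.04 ± 0.42 for AngII+LY against AngII. In the same comparison of AngII+LY with AngII, 7 of 10 interstitial cell markers were lower and 7 of 10 cardiomyocyte markers higher at an unadjusted p under 0.05, with median log2 fold changes of -0.97 and 1.25. Lum, Dcn, Col1a2 and Col3a1 are both matrix substrates and interstitial cell markers here, so the counts of these lists are not independent of each other. The part of these markers in the lower Timp3, Adamts12, Mmp19 and matrix genes was not tested.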

How the data were processed

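Aortic valve leaflets of single mice were micro-dissected for bulk RNA sequencing, 1 library per mouse. The authors deposited 1 table of counts per gene, which is named as normalized but holds whole numbers with different totals per library, and it was used as raw counts. Per the study's methods and the labels, reads were trimmed, aligned with HISAT2 to GRCm39 and counted with featureCounts; whether counting used strand, and the versions, are not given in the sources used here. Of counts between 1 and 20, 60.8% were even, and the reason was not tested.

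Symbols, positions and exon lengths came from GENCODE vM39 (GRCm39), with 618 genes (0.0361% of counts) unmatched. The 19145 genes that averaged 10 counts or more per library were fitted with edgeR 4.0.16 in R 4.3.3 (TMM, quasi-likelihood, 1 fit of the 4 groups, common dispersion 0.353), with p adjusted by Benjamini-Hochberg over all of them. Single genes were also compared by 2-sided exact permutation tests on log2(normalized count + 1), where 4 mice against 4 cannot go below p = 0.0286. Correlations used 100000 permutations. The scripts were tested on simulated data with 200 changed genes. Alternatives were DESeq2 1.42.0, other size factors and count filters, a loess correction for GC content (span 0.3), a replicate block, and leaving out mice. DESeq2 left some adjusted p undefined, and these are not printed. Plots and counts used Python 3.11.15. Samples were grouped by their titles, and replicates are separate mice.

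Values in every mouse are given for Timp1 to Timp4, Mmp2, Mmp9, Mmp14, the 5 further members with the highest median level per kilobase, and members at an edgeR unadjusted p under 0.05 for AngII against Ctrl or AngII+LY against AngII; in the other comparisons members at that p are named, and up to 3 genes of each other list by smallest p. The members, lists and tests were chosen with earlier results of these data known. Without AngII 3 and AngII 4, and with legacy = FALSE in edgeR, were chosen after seeing the data.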

Additional observations from a re-analysis of the deposited data

Results flagged for a closer look

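In groups of 4 mice, the gap between the most extreme mouse and its neighbour, as a share of the group's range on the log2 scale, was compared with Dixon's 95% critical value for the 24 members given mouse by mouse, which made 72 groups. In 2 of them it was exceeded, a smaller share than the about 1 group in 20 that chance alone would flag. Adamts9 in AngII 4, at 692 normalized counts, lay above the other AngII mice with a gap of 0.866 of the range. Adamts14 in AngII 4, at 0 normalized counts, lay below the others with a gap of 0.86. AngII 4 is also the smallest library and the one with the highest mitochondrial share, and a link to these 2 values was not tested.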

How the results depend on the processing

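Log2 fold changes of members were recomputed for 51 main values, which do not cover every tested member in each comparison. Of the 917 values this gave, from fits that share mice, 785 kept their direction and their side of an unadjusted p of 0.05. Another 90 no longer passed it, 26 newly passed it and 16 changed direction. Genes called were 0 by edgeR in each comparison. For AngII against Ctrl they were 2648 by DESeq2, 123 without a filter, 975 at a mean count of at least 100, 555 with legacy = FALSE and 0 to 1726 with 1 mouse left out (799 without Ctrl 4, 1726 without AngII 1, 360 without AngII 2). For AngII+LY against AngII they were 2062, 1, 514, 176 and 0 to 842 (842 without AngII 1, 2 without AngII+LY 1). For AngII+LY against Ctrl they were 343 by DESeq2, 13 without a filter, 1 with the replicate block and GC correction, and 0 to 3 with 1 mouse left out (1 without Ctrl 2, 3 without AngII+LY 4). DESeq2 called 21 for LY against Ctrl and 210 for the interaction. Members at an unadjusted p under 0.05 for AngII against Ctrl (11) numbered 7 with the replicate block and GC correction (beside 12.3% of all genes), 3 without AngII 3 and AngII 4 (8.62%), and 6 to 14 with 1 mouse left out (6 without Ctrl 1, 20.5%; 7 without AngII 4, 16.6%). For LY against Ctrl (1) they numbered 3 by DESeq2 (beside 2.27% of all genes), 3 in the 2 groups alone (3.49%) and 3 with legacy = FALSE (2.53%). They numbered 2 without a filter (1.94%), 2 with the replicate block (2.02%) and 2 with the block and GC correction (1.81%). With 1 Ctrl mouse left out they numbered 1 or 2 (2 without Ctrl 4, 2.0%). Without Ctrl 1 (1.16%) the 1 member was Mmp3 in place of Adamts6. Non-overlapping members for AngII against Ctrl (5) numbered 3 with library totals. The r of Mmp12 with macrophage markers was 0.54 with library totals and with the GC correction. With the longest transcript, levels per kilobase were 9730 for Timp3, 1460 for Mmp14 and 884 for Adamts10. Directions changed for Mmp14 in AngII against Ctrl (0.29 with the GC correction, with or without the block, 0.08 without AngII 3 and AngII 4) and in AngII+LY against AngII (-0.36 to 0.08 with 1 mouse left out; 0.04, 0.03, 0.04 and 0.08 without AngII 1, AngII 2, AngII+LY 1 and AngII+LY 4). They changed for Timp1 in AngII+LY against AngII (-0.02 with the GC correction, -0.01 with the block too, -0.28 to 0.39 with 1 mouse left out, -0.05 without AngII 1), for Timp2 in AngII against Ctrl (0.05 with the GC correction, with or without the block) and for Timp4 in AngII against Ctrl (-0.56 without AngII 3 and AngII 4, -0.26 to 0.94 with 1 mouse left out) and in AngII+LY against AngII (-0.00 to 0.83). The causes were not tested. The replicate numbers did not pair the mice (r = -0.128 to 0.09 over 12 same-numbered pairs, 0 above 0.1), and the replicate block alone gave 0 called genes in each comparison. The lowest libraries limit members with few counts, and 3 counts in a library, 4.1e-06 to 1.43e-05% of its counts, is the limit that a count of 0 allows.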
